A study of Mus musculus with 4 samples.

Results

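Levels of 10 acute phase protein genes (Saa1, Saa2, Saa3, Lcn2, Serpina3n, Hp, Lrg1, Orm1, Steap4 and Cp) were examined in the mouse heart, out of 23238 gene symbols measured. The genes were taken by symbol, and they were chosen by the log2 values they showed in these same 4 libraries. Their levels and fold changes are therefore a description, and no test stands behind them. All 10 genes had reads in at least 1 library.

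Hearts came from CDF1 mice, a hybrid mouse strain, and all were males with an age label of postnatal day 28. The study bought the mice at 4 weeks of age and took the tissues when the experiment ended. They were therefore older at tissue collection than this label. There were 4 groups of 10 mice: normal control E(−)T(−), without exercise or tumor; normal exercise E(+)T(−), with high-intensity aerobic treadmill running; cancer control E(−)T(+), injected through the tail vein with CT26 murine colorectal cancer cells; and cancer exercise E(+)T(+), with both. CT26 is a single established cell line, and cells given by this route reach many organs through the blood. Each group is represented by 1 heart library, and the labels do not say whether it held the RNA of 1 mouse or of several. The study sequenced skeletal muscle of a representative mouse per group and describes a similar analysis for the heart. With 1 library per group, nothing shows how far mice of 1 group differ. The groups are called by these names below, and a comparison is written as 1 group over another. QuantSeq reads come from the 3′ ends of transcripts, 1 per transcript whatever its length, so that genes can be compared by their reads.

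Acute phase proteins are proteins whose levels in blood change within hours to days of infection, injury or a growing tumor. The liver is their main source, where interleukin 6 acting through STAT3, and interleukin 1 or tumor necrosis factor acting through NF-κB and C/EBP factors, switch their genes on. Several are also made outside the liver, in macrophages, endothelium, fat and stromal cells, and Saa3 and Lcn2 are known for such local expression in mice.

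The normal control library held 6595429 reads, the normal exercise library 8477132, the cancer control library 9532863 and the cancer exercise library 11545960. Cardiomyocyte genes such as Myl3, a myosin light chain, were abundant in every library, with summed normalized read counts of the 10 markers between 511665 and 600280. The cancer exercise library stood apart, with 37.3% of its reads on globin genes against 7.86% to 8.76% in the others. Both comparisons with cancer exercise rest on this library, and the cancer control over the normal control does not include it. Because the tissue was sequenced in bulk, fewer cells of a type and less RNA per cell cannot be told apart.

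Saa3, Saa1 and Saa2 encode serum amyloid A proteins, small apolipoproteins of high-density lipoprotein, and lie together within 42.3 kb on mouse chromosome 7. In GRCm38.p6 (mm10), Saa3 occupies chr7:46711998-46715700 on the minus strand, Saa1 chr7:46740497-46742980 on the minus strand and Saa2 chr7:46751790-46754313 on the plus strand, each with up to 4 exons in a transcript. Saa1 and Saa2 transcripts were 94.4% identical over their aligned bases, against 80.8% for Saa1 and Saa3 and 77.8% for Saa2 and Saa3. In the last 500 bases of their transcripts, Saa1 and Saa2 shared no stretch of 75 bases with another gene, and 2.82% of the stretches of Saa3 recurred elsewhere. The corresponding share was 22.8% for Orm1, all with its copy Orm2, so that the counts of Orm1 are uncertain. It was 0 for each of the other 6 genes. Cp overlaps Hps3 on the opposite strand, and the reads of these overlapping genes cannot be divided where strand was not used in counting.

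The promoters of Saa3, Lcn2 and Serpina3n are shown because these genes had the largest fold changes with tumor in mice without exercise. Sequences are from RefSeq, GRCm38.p6, and run 5′ to 3′ over the 250 bases before the transcript start that the RefSeq promoter table uses. Annotated starts differ, so that the Lcn2 window lies inside the GENCODE span of the gene, which has a longer transcript with a start further upstream, and the Saa3 window overlaps the first bases of the GENCODE span given above. Capitals mark every match, on either strand, to a C/EBP-type motif (TTNNGNAA) or to an NF-κB-type motif (GGG, any 5 bases, then CC), and matches that overlap are run together. The windows are chr7:46715677-46715926 on the minus strand for Saa3, chr2:32387740-32387989 on the minus strand for Lcn2 and chr12:104406458-104406707 on the plus strand for Serpina3n.
Saa3: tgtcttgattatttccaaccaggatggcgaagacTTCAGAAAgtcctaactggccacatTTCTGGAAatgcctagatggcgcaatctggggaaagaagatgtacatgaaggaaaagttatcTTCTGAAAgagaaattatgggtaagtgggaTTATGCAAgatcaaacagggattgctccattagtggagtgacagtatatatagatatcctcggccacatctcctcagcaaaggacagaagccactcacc
Lcn2: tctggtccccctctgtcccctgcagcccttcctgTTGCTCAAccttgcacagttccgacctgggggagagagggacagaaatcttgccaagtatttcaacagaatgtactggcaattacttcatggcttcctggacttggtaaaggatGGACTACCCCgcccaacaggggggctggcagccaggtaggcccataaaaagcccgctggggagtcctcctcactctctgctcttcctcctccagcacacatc
Serpina3n: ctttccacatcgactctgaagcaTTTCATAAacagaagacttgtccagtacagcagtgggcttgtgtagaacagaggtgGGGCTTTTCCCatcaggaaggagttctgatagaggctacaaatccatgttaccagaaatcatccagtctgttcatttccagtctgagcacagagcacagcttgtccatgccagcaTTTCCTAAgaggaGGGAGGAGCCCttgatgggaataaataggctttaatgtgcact

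Saa3 held 4 C/EBP-type matches and no match to the NF-κB-type letters in this window, Lcn2 held 1 of each, and Serpina3n held both kinds. Across the 8 members with a promoter sequence, which gave 9 windows of 300 bases (250 before to 50 after the start), the C/EBP-type motif occurred in 8 windows. These windows belonged to 7 genes, since Cp had more than 1 window. The C/EBP-type motif occurred in 40.7% of 32851 mouse promoter windows of the same length. The NF-κB-type motif occurred in 7 of the 9 windows and in 50.8% of all windows. A STAT-type motif (TTCNNNGAA) occurred in 1, that of Steap4, and in 8.3% of all windows. Saa1 and Saa2 shared the letters of 1 C/EBP-type and 1 NF-κB-type match at nearly the same places, so their windows are not separate cases. Promoters of Hp and Orm1 were not used here. A match is a description of the letters and not a binding site.

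In the cancer control over the normal control, the comparison that asks what the tumor does without exercise, 8 of the 10 genes were higher by at least 2-fold and 1, Orm1, was lower. Genes were called when they changed 2-fold or more and reached 4 normalized reads in 1 of the 2 libraries. Among the 14311 genes that reached this minimum, 14.6% were higher and 13.1% were lower. The median log2 fold change of the 10 genes was 3.72, against −0.01 for all genes. It was 2.59 when Saa1 and Saa2, absent in the normal control, were set at a floor of 3 reads there. All 10 genes together took 0.199% of the reads in the cancer control (18964 reads, 95% Clopper-Pearson interval 0.196% to 0.202%), against 0.0217% in the normal control (1434 reads, 0.0206% to 0.0229%). These and all intervals below cover counting error only, since reads copied by PCR are not independent molecules and no second library shows the spread between mice.

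**Figure D1:**
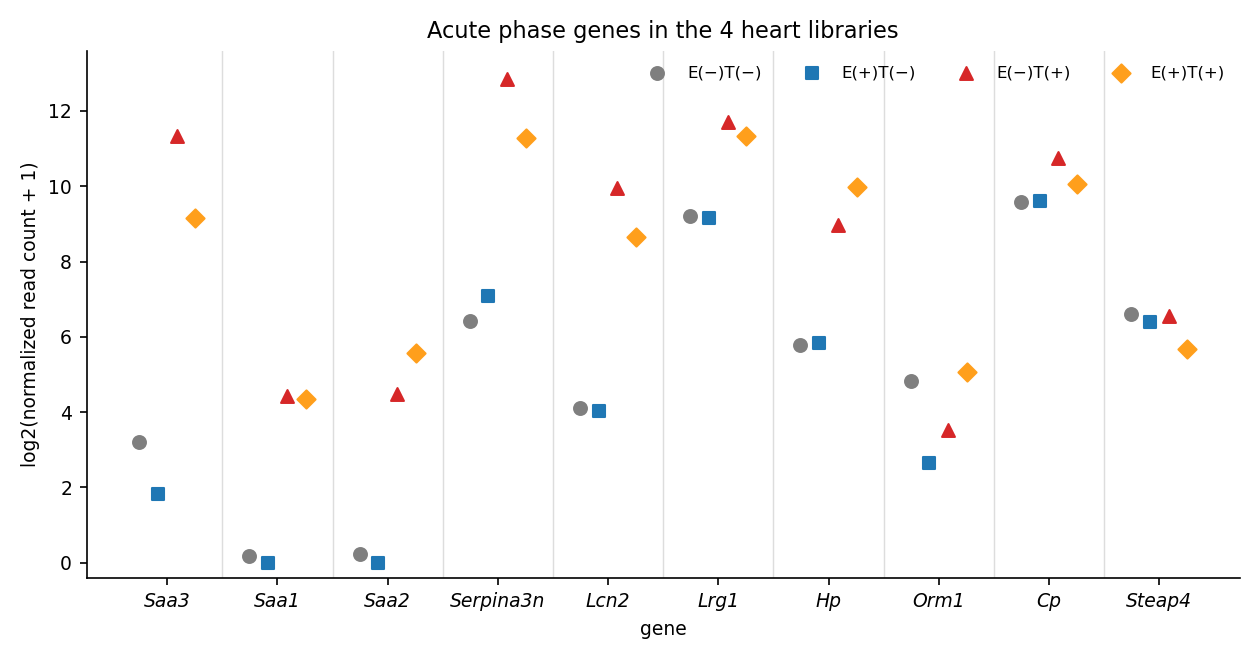
Log2(normalized read count + 1) of the 10 acute phase genes (x axis), with 1 point for each of the 4 heart libraries. In 7 genes (Saa3, Saa1, Saa2, Serpina3n, Lcn2, Lrg1 and Hp) both tumor libraries lie above both libraries without tumor by more than 2-fold, while Orm1 and Steap4 show no such split.

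Among the serum amyloid A genes, Saa3 had 7 reads in the normal control, 3 in normal exercise, 2939 in the cancer control and 518 in cancer exercise. It was nearly silent in both hearts without tumor, and in the cancer control only Serpina3n and Lrg1 of the 10 genes had more reads. Its log2 fold change was 8.13 in the cancer control over the normal control (95% interval 7.29 to 9.65), rank 2 of the 14311 genes. The liver-type forms, Saa1 and Saa2, were absent without tumor and scarce with it. Saa1 had 0, 0, 23 and 18 reads in the normal control, normal exercise, the cancer control and cancer exercise, and Saa2 had 0, 0, 24 and 43. With a floor of 3 reads set in the normal control in place of 0, Saa1 was 5.90-fold and Saa2 6.15-fold higher in the cancer control. The lower ends of their 95% intervals were 2.15 and 2.21 log2 units. In the cancer control, Saa3 made up 15.5% of the reads of the 10 genes, while Saa1 and Saa2 made up 0.121% and 0.127%.

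Serpina3n, a secreted inhibitor of serine proteases related to human antichymotrypsin, had 73 reads in the normal control, 149 in normal exercise, 8398 in the cancer control and 2267 in cancer exercise. It was the most abundant of the 10 genes in the cancer control, where it made up 44.3% of their reads against 5.09% in the normal control. Its log2 fold change in the cancer control over the normal control was 6.45 (6.14 to 6.82), rank 4 of all genes. All 4 libraries were separated from their neighbours in the order of its levels beyond the counting intervals.

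Lcn2, lipocalin 2, binds the siderophores with which bacteria take up iron. Its reads were 14 in the normal control, 17 in normal exercise, 1123 in the cancer control and 367 in cancer exercise. The libraries without tumor were not separated by their intervals, and both tumor libraries lay far above them. The log2 fold change in the cancer control over the normal control was 5.84 (5.20 to 6.82), rank 10 of all genes. Over the 4 libraries, Lcn2 and Serpina3n had the most similar patterns of any pair of the 10 genes, with a Euclidean distance of 0.59 between their centred log2 values, and Saa3 and Steap4 the least similar, with 8.20.

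Lrg1, a leucine-rich glycoprotein that modulates TGF-β signaling in endothelium, differed in that it was well expressed without tumor. Its reads were 513 in the normal control, 635 in normal exercise, 3802 in the cancer control and 2348 in cancer exercise. The log2 fold change in the cancer control over the normal control was 2.51 (2.38 to 2.65). Hp, haptoglobin, which captures free hemoglobin, had 47, 63, 571 and 922 reads in the same order of libraries. Its log2 fold change was 3.19 (2.79 to 3.69), and unlike Lrg1 its highest library was cancer exercise.

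Cp and Steap4 handle metals. Cp, ceruloplasmin, a copper-carrying ferroxidase, had 671 reads in the normal control, 868 in normal exercise, 1966 in the cancer control and 973 in cancer exercise. It was the most abundant of the 10 genes in both libraries without tumor, with 46.8% and 47.4% of their reads, and its log2 fold change in the cancer control over the normal control was 1.17 (1.05 to 1.30). Steap4, a membrane reductase of iron and copper, had 85, 92, 106 and 46 reads. Its log2 fold change was −0.06 (−0.48 to 0.37), and its 3 highest libraries were not separated by their intervals.

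Orm1, orosomucoid, a plasma protein that carries lipophilic compounds, was the exception. It had 24 reads in the normal control, 6 in normal exercise, 12 in the cancer control and 30 in cancer exercise. Its levels did not divide by tumor: the highest pair, cancer exercise and the normal control, were not separated by their intervals, and nor were the lowest pair. It fell by 1.31 log2 units in the cancer control over the normal control (95% interval −2.51 to −0.32).

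**Figure D2:**
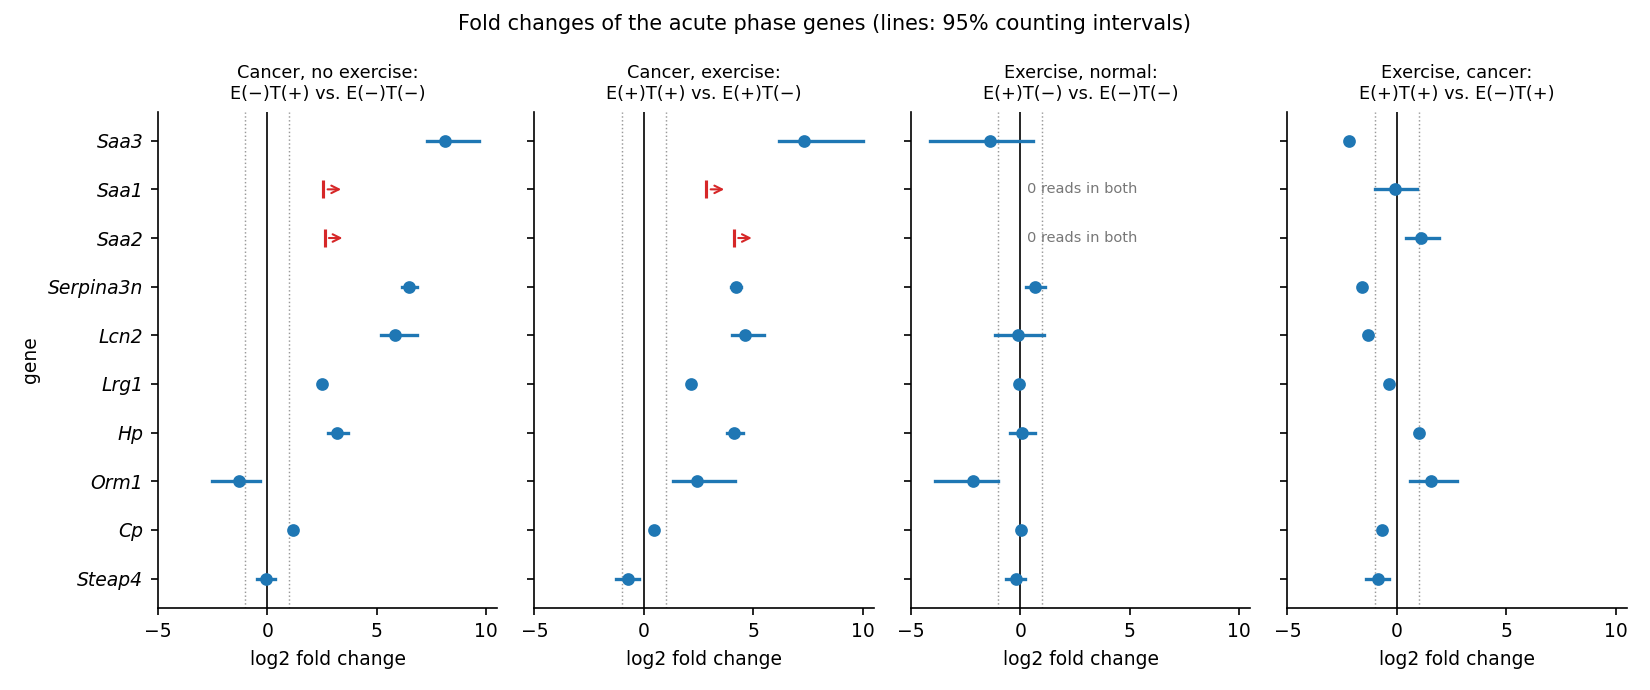
Log2 fold change of each gene (y axis) in the 4 comparisons, with 95% counting intervals as lines and dotted lines at 2-fold. Red bars with arrows are the values of Saa1 and Saa2 with 3 reads set in the libraries without tumor, where they had 0. In E(+)T(+) vs. E(−)T(+), Saa3, Serpina3n and Lcn2 are lower and Saa2 and Orm1 higher by at least 2-fold.

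Between exercised mice, in cancer exercise over normal exercise, 8 of the 10 genes were higher and 0 lower by at least 2-fold. Of the 14282 genes that reached the minimum, 12% were higher and 11.1% lower, and these were 5.62% and 35.3% when reads were scaled by library size alone, which moved the median of all genes from −0.01 to −0.74. The log2 fold change was 7.32 for Saa3 (6.15 to 9.99, from 3 reads in normal exercise), 4.63 for Lcn2 (4.01 to 5.50), 4.19 for Serpina3n (3.96 to 4.45), 4.12 for Hp (3.78 to 4.54) and 2.16 for Lrg1 (2.03 to 2.29). With the floor of 3 reads set in normal exercise in place of 0, Saa1 was 7.26-fold and Saa2 17.4-fold higher. The lower ends of their 95% intervals were 2.41 and 3.75 log2 units. Orm1 had a log2 fold change of 2.42 (1.31 to 4.15), opposite in sign to its value between mice without exercise. Cp had a log2 fold change of 0.44 (0.31 to 0.57), which became −0.28 under library size scaling, and Steap4 had −0.71 (−1.27 to −0.20), so neither passed 2-fold, although Steap4 did under library size scaling, with −1.42. This comparison and the cancer control over the normal control share no library. The median of the 10 genes was 4.16, or 3.49 with Saa1 and Saa2 at the floor of 3 reads in normal exercise.

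Exercise in mice without tumor was compared as normal exercise over the normal control. Of the 10 genes, 8 reached the minimum, 0 were higher and 2 lower, and Saa1 and Saa2 had 0 reads in both libraries. Of 13930 genes, 5.88% were higher and 6.40% lower. Orm1 fell by 2.17 log2 units (−3.92 to −1.01). Saa3 passed 2-fold with 3 against 7 reads and a log2 fold change of −1.39, but its interval of −4.15 to 0.57 includes 0. Serpina3n had 149 against 73 reads, a log2 fold change of 0.67 (0.27 to 1.11) that did not reach 2-fold. Log2 fold changes of Lcn2, Hp, Lrg1, Cp and Steap4 lay between −0.22 and 0.07. All 10 genes took 0.0216% of the reads, against 0.0217% in the normal control.

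In mice with tumor, the genes divided. In cancer exercise over the cancer control, 3 genes were lower and 2 higher by at least 2-fold. Of 14357 genes, 9.39% were higher and 10.0% lower, and these became 3.81% and 25.6% under library size scaling, which moved the median of all genes from −0.01 to −0.60. Saa3 fell by 2.19 log2 units (−2.33 to −2.06), Serpina3n fell by 1.58 log2 units (−1.65 to −1.51) and Lcn2 fell by 1.30 log2 units (−1.48 to −1.13). These were the genes with the largest fold changes in the cancer control over the normal control, and both comparisons share the cancer control library, so that a high value there alone enters both with opposite signs. The share of all 10 genes was 0.0652% of the reads in cancer exercise (7532 reads, 0.0638% to 0.0667%), a total in which globin reads are included.

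Other genes differed little or were higher with exercise. Steap4 had a log2 fold change of −0.88 (−1.43 to −0.38), Cp −0.70 (−0.82 to −0.59) and Lrg1 −0.38 (−0.46 to −0.31), all short of 2-fold, although Steap4 and Cp passed it under library size scaling with −1.46 and −1.29. Saa1 had a log2 fold change of −0.07 (−1.02 to 0.91). Hp, with 922 against 571 reads, had a log2 fold change of 0.999 (0.85 to 1.15), just under 2-fold. The log2 fold change of Saa2 was 1.10 (0.40 to 1.94) and that of Orm1 1.55 (0.62 to 2.73), and both were higher by at least 2-fold. Under library size scaling these were 0.54 for Saa2, 0.98 for Orm1 and 0.41 for Hp, so that Saa2 and Orm1 no longer passed 2-fold. Saa1, Saa2 and Saa3, neighbours on the chromosome, thus had log2 fold changes of −0.07, 1.10 and −2.19, and the interval of Saa3 did not overlap those of Saa1 and Saa2.

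The wider acute phase program was described by lists written from general knowledge. All list counts below are to be read beside the shares over all genes given above for each comparison. These were 14.6% higher and 13.1% lower in the cancer control over the normal control. In cancer exercise over the cancer control they were 9.39% and 10.0%. Of 30 other positive acute phase genes that reached the minimum, 24 were higher and 1 lower in the cancer control over the normal control, with a median log2 fold change of 2.63. Mt2, a metallothionein that binds zinc and copper, had 316 reads in the normal control, 1018 in normal exercise, 34044 in the cancer control and 30381 in cancer exercise, in both tumor libraries more than any of the 10 genes, and rose by 6.37 log2 units (6.21 to 6.54). Itih4, an inter-α-trypsin inhibitor chain, rose by 4.46 log2 units (3.55 to 6.16). Fgb, the fibrinogen β chain, had 0, 2, 66 and 76 reads, and Serpina3m, a close relative of Serpina3n, had 0, 0, 57 and 19. In cancer exercise over the cancer control, 3 of 33 were higher and 4 lower, near the shares over all genes, with a median of −0.28.

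Negative acute phase genes, whose liver output normally falls in inflammation, gave no lower call in either comparison. Of 7 that reached the minimum in the cancer control over the normal control, 4 were higher and 0 lower, and in cancer exercise over the cancer control 2 of 8 were higher and 0 lower. Over all genes 13.1% and 10.0% were lower, so the absence of lower calls among so few genes says little. Alb, albumin, had 7, 4, 55 and 107 reads and rose by 2.42 log2 units (1.46 to 3.98) in the cancer control over the normal control. Ahsg, fetuin-A, had 91, 162, 1186 and 499 reads and rose by 3.31 log2 units (3.02 to 3.65). Trf, transferrin, had a log2 fold change of 0.13 (−0.04 to 0.30), and Rbp4, which carries retinol, −0.14 (−0.58 to 0.29).

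Transcripts of the inducing cytokines were rare. Il6, Il22 and Il17a had 0 reads in all 4 libraries, which allows up to 3 reads in each. Of 6 ligand genes that reached the minimum in the cancer control over the normal control, 3 were higher and 1 lower. Il1b, interleukin 1β, had 15 reads in the normal control, 19 in normal exercise, 50 in the cancer control and 34 in cancer exercise, and rose by 1.30 log2 units (0.50 to 2.30). Cntf, a cytokine of the interleukin 6 family, had 2, 4, 28 and 38 reads, and its log2 fold change was 2.88 (1.44 to 6.54). Ctf1, cardiotrophin 1, had a log2 fold change of −1.05 (−2.49 to 0.17) and Il18 0.20 (−0.77 to 1.22). None was called in cancer exercise over the cancer control (0 of 6 in either direction).

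Among 13 cytokine receptor genes, 6 were higher and 0 lower in the cancer control over the normal control, with a median of 0.96. Il1r2, a decoy receptor of interleukin 1, had 4, 3, 86 and 113 reads and rose by 3.72 log2 units (2.64 to 5.96). Il1r1 and Il17ra, receptors of interleukins 1 and 17, both rose by 1.78 log2 units, with intervals of 1.27 to 2.38 and 1.38 to 2.23. Osmr, the oncostatin M receptor, had 75, 136, 308 and 137 reads and rose by 1.65 log2 units (1.29 to 2.04). In cancer exercise over the cancer control, 0 of 13 were higher and 3 lower, and Osmr had a log2 fold change of −0.86 (−1.16 to −0.56).

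Of 20 signal transducers and transcription factors, 3 were higher and 1 lower in the cancer control over the normal control. The higher count was near the share over all genes, which was 14.6%, and 13.1% of all genes were lower. Cebpd, a C/EBP factor of the acute phase, had 321 reads in the normal control, 625 in normal exercise, 1732 in the cancer control and 1159 in cancer exercise, and rose by 2.05 log2 units (1.88 to 2.23). Cebpb rose by 1.11 log2 units (0.69 to 1.59) and Traf6, an adaptor of interleukin 1 signaling, by 1.20 (0.75 to 1.70). Stat3, with 2206, 3107, 5637 and 3914 reads, had a log2 fold change of 0.97 (0.90 to 1.05) and did not reach 2-fold. Of the same 20, 1 was higher and 1 lower in cancer exercise over the cancer control, against 9.39% and 10.0% of all genes.

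Immediate and feedback targets of STAT3 and NF-κB were higher in 13 of 16 genes and lower in 0 in the cancer control over the normal control, with a median of 1.74. Socs3, which shuts down interleukin 6 signaling, had 76 reads in the normal control, 243 in normal exercise, 779 in the cancer control and 1398 in cancer exercise, and rose by 2.96 log2 units (2.64 to 3.34). Ccl2, a monocyte-attracting chemokine, rose by 2.99 log2 units (2.32 to 3.95), Junb by 2.32 (2.09 to 2.57) and the kinase gene Pim1 by 2.13 (1.88 to 2.42). In cancer exercise over the cancer control, 4 of 16 were higher and 0 lower, with a median of 0.18. Socs3 was 1 of the 4, with a log2 fold change of 1.15 (1.03 to 1.28), while Saa3, Serpina3n and Lcn2 were lower in the same pair of libraries. Under library size scaling the median of all genes in this comparison lay 0.60 below 0, as given above. The list counts were not recomputed under that scaling.

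**Figure D3:**
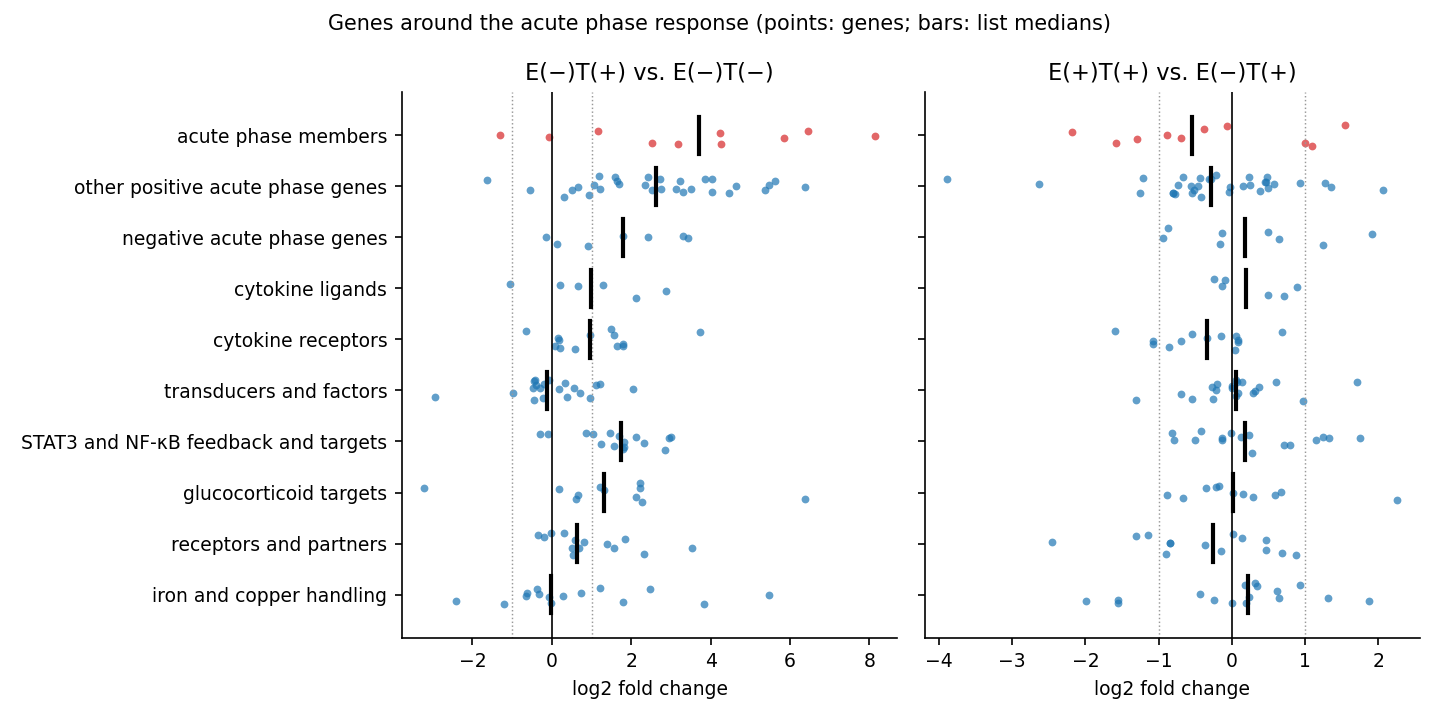
Log2 fold change (x axis) of the genes that reached the minimum in each list (y axis), with 1 point per gene, black bars at the list medians and dotted lines at 2-fold. Left, E(−)T(+) vs. E(−)T(−), where the STAT3 and NF-κB targets have a median of 1.74; right, E(+)T(+) vs. E(−)T(+), where it is 0.18. Genes with 0 reads in a library are drawn at the deposited difference, which depends on the pseudocount.

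Glucocorticoids act with cytokines on acute phase genes, and 7 of 11 glucocorticoid targets were higher and 1 lower in the cancer control over the normal control, with a median of 1.31. Besides Mt2, which is also on this list, Per1, a clock gene, rose by 2.28 log2 units (1.90 to 2.73) and Sgk1, a kinase gene, by 2.22 (2.01 to 2.45). Pdk4, which restrains glucose oxidation, fell by 3.21 log2 units (−4.04 to −2.57). Pdk4 alone, 1 of 11, was higher in cancer exercise over the cancer control, and 0 were lower.

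Of 14 genes for receptors and binding partners of the acute phase proteins, 5 were higher and 0 lower in the cancer control over the normal control, and 0 were higher and 3 lower in cancer exercise over the cancer control. Fpr2, a formyl peptide receptor that binds serum amyloid A, had 8, 22, 134 and 98 reads and rose by 3.52 log2 units (2.67 to 4.93). Cd163, the macrophage receptor for haptoglobin bound to hemoglobin, had 221, 228, 847 and 308 reads, rose by 1.56 log2 units (1.34 to 1.78) with tumor and fell by 1.15 log2 units (−1.34 to −0.96) in cancer exercise over the cancer control. Tgfbr2, a TGF-β receptor, rose by 1.39 log2 units (1.14 to 1.66) and fell by 1.31 log2 units (−1.57 to −1.07) in the same comparisons. Tgfbr1 had log2 fold changes of 0.81 (0.32 to 1.34) and −0.36 (−0.82 to 0.08).

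Genes of iron and copper handling, which work with Hp, Cp, Lcn2 and Steap4, moved in both directions. Of 15 that reached the minimum in the cancer control over the normal control, 5 were higher and 2 lower, and in cancer exercise over the cancer control 2 of 16 were higher and 3 lower. Over all genes the shares were 14.6% and 13.1% in the first comparison and 9.39% and 10.0% in the second. Hmox1, heme oxygenase 1, had 16 reads in the normal control, 41 in normal exercise, 313 in the cancer control and 85 in cancer exercise, and rose by 3.82 log2 units (3.19 to 4.74). Fth1, the ferritin heavy chain, rose by 1.22 log2 units (1.19 to 1.25). Tfrc, the transferrin receptor, had 391, 626, 95 and 282 reads and fell by 2.41 log2 units (−2.76 to −2.09). Slc40a1, the iron exporter ferroportin, fell by 1.20 log2 units (−1.74 to −0.71). Tfrc and Slc40a1 were the 2 genes that were higher in cancer exercise over the cancer control, with log2 fold changes of 1.87 (1.54 to 2.23) and 1.31 (0.83 to 1.83). Steap1, a relative of Steap4 chosen after its values were seen, had 0, 0, 57 and 11 reads.

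Markers of other cell types also differed between the libraries, and not all in the direction of the 10 genes. Neutrophil markers summed to 150 normalized reads in the normal control, 104 in normal exercise, 3280 in the cancer control and 6194 in cancer exercise, and 10 of 11 were higher in the cancer control over the normal control. S100a8, a calcium-binding protein of neutrophils, had 40, 38, 1511 and 2537 reads. With S100a9 (54, 40, 1674 and 2329 reads) it made up most of this sum in the tumor libraries. In cancer exercise over normal exercise 10 of 11 neutrophil markers were higher and 0 lower. In cancer exercise over the cancer control 4 of 11 were higher and 0 lower, and Mmp9 had a log2 fold change of −0.62 (−1.18 to −0.09). The neutrophil sum was highest in cancer exercise, as were Hp and Saa2, whereas Saa3, Serpina3n and Lcn2 were highest in the cancer control. Macrophage markers summed to 2675, 3149, 6084 and 3410, with the cancer control highest, and 7 of 11 were higher in the cancer control over the normal control and 6 of 11 lower in cancer exercise over the cancer control. In cancer exercise over normal exercise only 2 of 11 macrophage markers were higher and 1 was lower. Marco, a scavenger receptor with the largest change of this list, had 1, 0, 376 and 11 reads. The markers Adgre1, Csf1r, Ccr2 and Cx3cr1 were not called in the cancer control over the normal control. Their log2 fold changes there were −0.37, −0.11, −0.51 and −0.29. Fibroblast markers summed to 25618, 30628, 55390 and 32252, most of it Dcn. In the cancer control over the normal control 4 of 8 were higher and 0 lower, and Dcn, with 0.99, was not called. In cancer exercise over the cancer control 0 were higher and 5 of 8 lower. In cancer exercise over normal exercise 0 were higher and 4 of 8 lower. Col1a1, a collagen of fibroblasts with the largest rise of the list, rose by 2.10 log2 units (1.96 to 2.24) in the cancer control over the normal control. It fell by 3.09 log2 units (−3.28 to −2.91) in cancer exercise over the cancer control and by 2.03 (−2.23 to −1.85) in cancer exercise over normal exercise. The part of these cell types in the levels of the 10 genes was not tested.

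Hepatocyte markers summed to 255, 222, 1244 and 939 normalized reads. Of the 8 that reached the minimum, 5 were higher and 0 lower in the cancer control over the normal control, all 8 were higher in cancer exercise over normal exercise, and 3 were higher and 0 lower in cancer exercise over the cancer control. Of the 11 listed markers 10 had reads, and only Fabp1 had 0 reads in all 4 libraries. Ahsg made up most of this sum in the tumor libraries. Adipocyte markers summed to 4986, 2714, 3152 and 5598, and Adipoq, adiponectin, had 317, 78, 76 and 356 reads. The libraries with the most adipocyte reads, cancer exercise and the normal control, were also the highest pair for Orm1. Of the adipocyte markers, 8 of 10 were lower in the cancer control over the normal control, 8 of 10 were lower in normal exercise over the normal control, and 7 of 9 were higher in cancer exercise over the cancer control. Erythroid markers summed to between 508532 and 526658 in 3 libraries and to 3593604 in cancer exercise, and lung epithelial markers to 645, 176, 591 and 1887. Endothelial markers summed to between 20062 and 27824, most of it Fabp4, and 2 of 8 were lower in the cancer control over the normal control, Kdr with 2296 against 804 reads and Cdh5 with 736 against 398. The part of these markers in the levels of Orm1, Hp and the others was not tested.

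**Figure D4:**
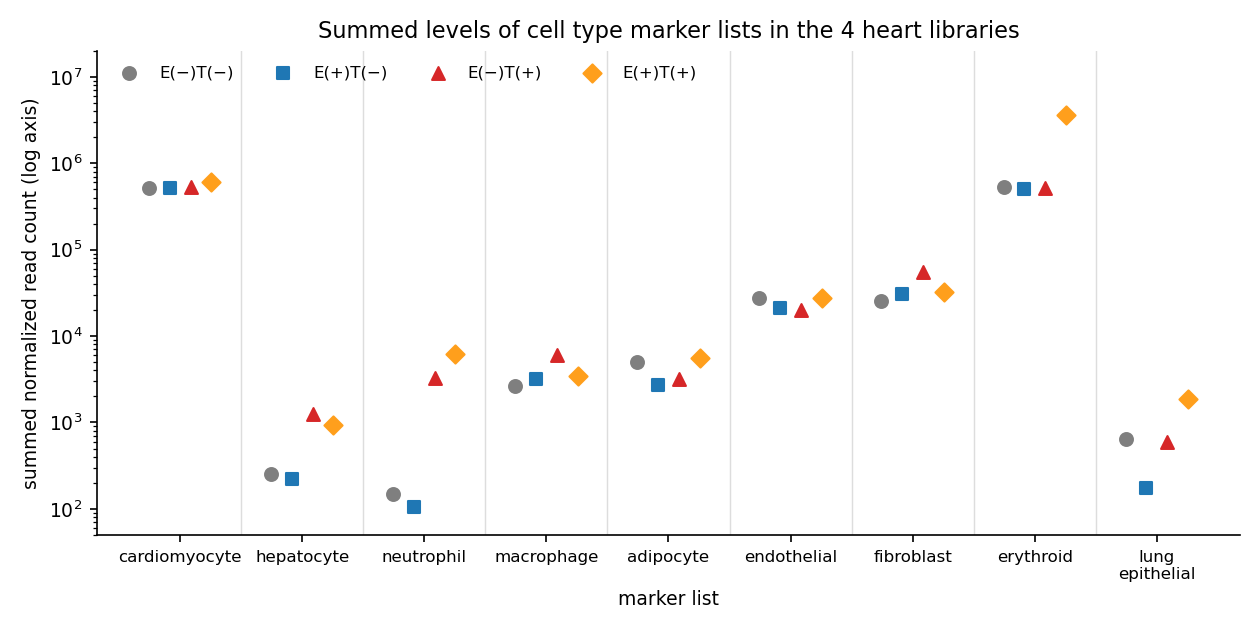
Summed normalized read counts (y axis, log scale) of 9 lists of cell type markers, with 1 point per heart library. Neutrophil markers reach 3280 and 6194 in the tumor libraries against 150 and 104, macrophage and fibroblast markers are highest in E(−)T(+), and erythroid markers are highest in E(+)T(+).

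Genes with the most similar pattern over the 4 libraries were sought among 12568 genes that reached 16 normalized reads in 1 library, by the Euclidean distance between centred log2 values. With only 4 libraries, many genes lie close by. Nearest to the mean profile of the 10 genes was Fcgr4, an Fc receptor of myeloid cells, with 4 reads in the normal control, 5 in normal exercise, 67 in the cancer control and 47 in cancer exercise and a distance of 0.22. It was followed by Cysltr1, a leukotriene receptor, at 0.35, Ifitm6 at 0.39, Map3k8, a kinase gene of inflammatory signaling, at 0.44, and Hcst, a signaling adaptor of lymphoid and myeloid cells, at 0.47.

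For single genes, the nearest were Serpina3m for Lcn2 at a distance of 0.30, Retnlg, a neutrophil marker, for Saa2 at 0.34, Asprv1 for Saa1 at 0.33 and Soat2 for Hp at 0.19. Those of Lrg1 and Orm1 were H19, an imprinted noncoding RNA, at 0.23 and Tnfrsf9, a receptor of activated lymphocytes, at 0.30. Those of Cp and Steap4 were Prom1 at 0.03 and Zfp383 at 0.04. Saa3 had no close neighbour, the nearest being BC100530 at 2.12, with 1, 1, 187 and 103 reads.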

How the data were processed

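The study measured heart mRNA with QuantSeq in 4 groups of mice, 1 library each. The authors deposited 1 value per gene and library, log2(normalized read count + 1). Per the labels and the study's methods, reads were aligned to mm10 with Bowtie2, counted per gene with Bedtools and normalized by a quantile method of edgeR; versions are not given in the sources used here. Reads were recovered by inverting, from the deposited log2 values, a quantile adjustment of negative binomial counts (common dispersion 0.149). The fit returned every deposited value to within 0.000509, and 100% of the 25035 values from 5 to 99 reads came out whole to within 0.1. The recovery was tested on simulated data.

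Fold changes are differences of the deposited log2 values, so that those of low genes are understated. Genes were called at 2-fold or more if they reached 4 normalized reads in 1 of the 2 libraries, after the thresholds of the study, which does not say in which libraries the minimum applies. Intervals (95%, Clopper-Pearson) are for the read ratio at effective library sizes (relative sizes 0.872, 1.106, 1.134 and 0.914 for E(−)T(−), E(+)T(−), E(−)T(+) and E(+)T(+)), and the floor for a library with 0 reads is 3. They can differ slightly from the fold change, which carries the pseudocount of 1. With 1 library per group no test of a condition was possible and no p-value is given. Where a symbol had more than 1 row (35 symbols), the row with the highest mean was used.

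The 10 genes, the lists and the comparisons were chosen with earlier results of these data known. Named genes are the 10 genes, up to 4 genes of each list with the largest absolute log2 fold change in E(−)T(+) vs. E(−)T(−) if their mean reached 16 normalized reads, 9 regulators and markers named in any case, and the genes nearest in pattern; others were chosen after their values were seen. Not every gene this rule names is described, and a few are not reported here. Gene positions are from GENCODE and promoters from RefSeq, GRCm38.p6. Proteins were not used here. Alternatives for the 10 genes were the scaling, the minimum, the pseudocount, the fold and summed rows. For the lists only the minimum was changed. Python 3.11.15 with numpy 2.4.6, pandas 2.3.3, scipy 1.17.1 and matplotlib 3.10.9, and R 4.3.3, were used.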

Additional observations from a re-analysis of the deposited data

Results flagged for a closer look

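Serpina3n had opposite values with exercise in mice without and with tumor: its log2 fold change was 0.67 (0.27 to 1.11) in normal exercise over the normal control and −1.58 (−1.65 to −1.51) in cancer exercise over the cancer control, and only the second passed 2-fold. Orm1 also had opposite values, with −2.17 (−3.92 to −1.01) without tumor and 1.55 (0.62 to 2.73) with tumor, both past 2-fold. With 1 library per group, the difference between the groups was not tested for either gene. The reads of Orm1 were 24 against 6 and 30 against 12, and 22.8% of the 75-base stretches at the end of its transcript are shared with Orm2.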

How the results depend on the processing

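Of 200 recomputed fold changes of single genes (10 genes, 4 comparisons, 5 alternatives), 180 stayed within their counting interval and 20 left it, and 0 called values changed sign. Of 94 recomputed counts and medians of the 10 genes, 84 were kept. Scaling by library size gave 1 lower gene in cancer exercise over normal exercise in place of 0, and in cancer exercise over the cancer control a median of −1.13 in place of −0.54, 0 higher genes in place of 2 and 5 lower in place of 3. Library sizes without the 12 genes over 1% of a library, globins among them, gave 2 higher and 3 lower in that comparison. With a fold of at least 4, the lower count was 0 in the cancer control over the normal control and 1 in normal exercise over the normal control, and in cancer exercise over the cancer control 0 were higher and 1 lower. In normal exercise over the normal control, the lower count was also 1 with a pseudocount of 4 or a minimum of 16 normalized reads. Alternatives chosen after seeing the data left out Saa1 and Saa2 or set them at the floor of 3 reads. They gave medians of 2.85 and 2.59 in the cancer control over the normal control. In cancer exercise over normal exercise the medians were 3.27 and 3.49. List counts were recomputed only with a minimum of 16 normalized reads and not under other scalings. Of these 36 counts, 32 stayed within 1.5 times. With a minimum of 16 normalized reads, the higher count in the cancer control over the normal control was 2 in place of 4 for negative acute phase genes and 3 in place of 5 for receptors and partners, the lower count of other positive genes there was 0 in place of 1, and their higher count in cancer exercise over the cancer control was 1 in place of 3. No paired analysis was possible because each group has 1 library, and for the same reason no library could be left out. Values of Saa1, Saa2, Orm1 and of Saa3 without tumor rest on few reads.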
